A study of Rattus norvegicus with 27 samples.

Results

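Trim16, Ascl3, Ftcd and Akap3 are 4 rat genes picked because, in earlier results of these same arrays, their transcripts differed from control rats in the same direction in a type 2 and a type 1 model of diabetes. They were thus chosen by their measured differences between diabetic and control brains, and those differences are given here as a description, with no test. The array carried 5 probes for the 4 genes among 41012 non-control probes, which cover 15505 RefSeq genes. Trim16 had 2 probes and the other genes had 1 each. Of the 5 probes, 4 passed the filter on dim signals in all 3 brain regions, and the second Trim16 probe passed it in none. The label held in every region for Trim16, Ascl3 and Ftcd. Akap3 was higher than in controls in the hippocampus and prefrontal cortex of both models but not in their striatum.

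The study profiled the hippocampus, prefrontal cortex and striatum of 10-week-old male rats on 1-colour Agilent oligonucleotide arrays, with 3 arrays for each of the 9 combinations of region and animals (27 arrays). Goto-Kakizaki (GK) rats, a strain that becomes diabetic without treatment, served as the type 2 model and had an average blood sugar of 13.9 mmol/L. Wistar rats given streptozotocin (STZ), a toxin of the insulin-producing beta cells, served as the type 1 model: they were injected into a vein with 65 mg/kg at 6 weeks of age, were killed 4 weeks later and averaged 26.34 mmol/L. Untreated Wistar rats served as controls and averaged 7.64 mmol/L. Each array held the pooled RNA of 3 rats, the same 9 rats per group gave all 3 regions, and both models were read against the same 3 control pools of each region. GK rats differ from the controls in strain as well as in diabetes, and the 2 cannot be told apart here.

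The 4 genes belong to unrelated pathways and, in the RefSeq annotation of the rat genome (GRCr8), lie on 4 different chromosomes. Trim16 encodes a tripartite motif protein with ubiquitin ligase activity that takes part in the autophagy of damaged lysosomes and in the Nrf2 response to oxidative stress. Ascl3 encodes a basic helix-loop-helix transcription factor of the achaete-scute family, known in mouse from progenitor cells of the salivary gland ducts. Ftcd encodes formimidoyltransferase cyclodeaminase, a liver enzyme that joins histidine breakdown to the folate one-carbon pool. Akap3 encodes a protein kinase A anchor best known from the fibrous sheath of the sperm tail.

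What each array spot reported was hybridisation to a 60-base probe, so the probes themselves are the objects behind every value and are printed here whole, 5′ to 3′, in lower case as the array files give them.
Trim16, first probe: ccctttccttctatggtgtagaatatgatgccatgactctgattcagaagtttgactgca
Trim16, second probe: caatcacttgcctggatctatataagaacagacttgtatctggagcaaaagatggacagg
Ascl3: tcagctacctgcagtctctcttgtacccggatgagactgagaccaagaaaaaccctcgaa
Ftcd: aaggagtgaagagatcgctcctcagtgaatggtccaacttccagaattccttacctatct
Akap3: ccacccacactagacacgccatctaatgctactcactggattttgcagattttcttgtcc
Both Trim16 probes had a GC content of 41.7%, below that of the probes of the other 3 genes, which for Akap3 was 46.7%. The longest run of bases that any of the 5 shared with another non-control probe of the array, on either strand, was 16, for the second Trim16 probe. It was 15 for the first Trim16 probe and 13 or 14 for the other genes. The array annotation ties the Trim16 probes to 2 different predicted transcripts, and the 2 did not report alike: the first was well above background on 21 of 27 arrays and the second on 2 of 27, 1 control pool of the hippocampus and 1 GK pool of the striatum. The values of the second probe were near background in all groups, so the account of Trim16 below rests on its first probe alone.

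Levels are given as log2 of the processed signal minus log2 of the 75th percentile of that array, so that 0 is the level of the 75th percentile and a step of 1 is a 2-fold change. Levels of different probes are not compared with each other. In a tissue homogenate a lower level can come from fewer cells of a type or from less RNA per cell, which these arrays cannot tell apart.

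Trim16 showed the widest separation between diabetic and control rats of the 4 genes. In the hippocampus its level was -5.17, -5.57 and -5.63 in the 3 GK pools and -5.11, -5.65 and -4.79 in the 3 STZ pools, against -2.05, -1.67 and -1.64 in the control pools. Every diabetic pool lay far below every control pool, and 1 pool of each model was not well above background. In the prefrontal cortex the GK pools measured -5.08, -5.18 and -4.21 and the STZ pools -5.18, -4.85 and -5.19, against -1.42, -1.32 and -1.12 in controls. The third GK pool was the highest of the 6 diabetic pools and was still 2.79 below the lowest control pool. In the striatum the GK pools measured -5.42, -4.69 and -5.44 and the STZ pools -5.63, -5.57 and -5.49, against -1.59, -1.28 and -1.38 in controls. None of the 3 STZ striatal pools was well above background, so the size of the difference there is uncertain.

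The Trim16 difference between GK and control pools was -3.67 in hippocampus, -3.54 in prefrontal cortex and -3.77 in striatum (standard error 0.24 in each), or 12.7-, 11.6- and 13.6-fold lower. Between STZ and control pools it was -3.39 in the hippocampus and -3.79 in prefrontal cortex (standard error 0.24), 10.5- and 13.8-fold lower, and in striatum STZ rats were at least 17.5-fold lower. That bound set the mean of the 3 control pools against the dimmest signal that still counted as well above background on each STZ array, or the signal of the probe where that was higher. With normexp background correction, which raises dim signals, the mean of the 3 regional differences was smaller, -2.30 in GK and -2.22 in STZ rats, against -3.66 and -3.78. On the raw scale the processed signal of the first Trim16 probe lay between 19.6 and 53.4 in the diabetic pools and between 289.7 and 578.0 in the control pools. The 2 models were close to each other: GK minus STZ was -0.27 in hippocampus (95% interval -0.78 to 0.24), 0.25 in prefrontal cortex (-0.26 to 0.76) and 0.38 in striatum (-0.13 to 0.89). In the striatum none of the STZ pools and 2 of the 3 GK pools were well above background, so that last value compares signals near the limit of detection. With normexp correction GK minus STZ was -0.44 in the prefrontal cortex.

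Ascl3 was also lower in both models in every region, and here every pool was well above background. In the hippocampus the GK pools measured -4.40, -4.22 and -4.09 and the STZ pools -4.26, -4.08 and -3.66, against -1.13, -1.72 and -1.56 in controls. In the prefrontal cortex the GK pools measured -3.99, -3.95 and -3.51 and the STZ pools -3.97, -3.82 and -3.33, against -1.42, -1.74 and -1.56. All diabetic pools lay below all control pools in both regions, while the 2 models overlapped each other. In the striatum the GK pools measured -3.53, -2.86 and -3.53 and the STZ pools -3.67, -3.74 and -3.62, against -1.24, -1.21 and -1.38. The second GK striatal pool was the highest of all 18 diabetic pools, 1.48 below the lowest striatal control pool.

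The Ascl3 difference from controls was -2.77 in GK rats and -2.53 in STZ rats in the hippocampus, which are 6.81- and 5.77-fold lower. It was -2.24 in GK rats and -2.13 in STZ rats in the prefrontal cortex, and -2.03 in GK rats and -2.40 in STZ rats in striatum (standard error 0.20 in each). Averaged over the regions the difference was -2.35 in both models. GK minus STZ was -0.24 (95% interval -0.66 to 0.19) in the hippocampus, -0.11 (-0.53 to 0.32) in prefrontal cortex and 0.37 (-0.06 to 0.79) in striatum. With normexp correction it was -0.54 in prefrontal cortex. The intervals leave room for differences between the models of up to 0.79 on the log2 scale.

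Ftcd differed from controls in the opposite direction. In the hippocampus the GK pools measured -1.30, -1.21 and -1.15 and the STZ pools -1.61, -1.72 and -1.74, against -2.99, -2.92 and -2.67 in controls. In the prefrontal cortex the GK pools measured 0.24, 0.42 and 0.72 and the STZ pools 0.04, -0.01 and 0.12, against -1.84, -1.72 and -1.89. In both regions the 3 GK pools lay above the 3 STZ pools, which lay above the 3 control pools. In the striatum the GK pools measured -0.49, 0.08 and -0.25 and the STZ pools -0.50, -0.26 and -0.60, against -2.80, -2.58 and -2.78. Here the models overlapped each other while both stood well above controls.

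The Ftcd difference between GK and control rats was 1.64 in hippocampus, 2.27 in prefrontal cortex and 2.50 in striatum, or 3.12-, 4.83- and 5.65-fold higher. Between STZ and control rats it was 1.17, 1.86 and 2.27 in the same regions, or 2.25-, 3.63- and 4.81-fold higher (standard error 0.14 throughout). In each model the Ftcd difference was smallest in the hippocampus and largest in the striatum, but with normexp correction it was largest in prefrontal cortex, at 2.05 in GK and 1.74 in STZ rats, against 1.55 and 1.32 in striatum. GK minus STZ was 0.47 in the hippocampus (95% interval 0.18 to 0.76), 0.41 in prefrontal cortex (0.12 to 0.70) and 0.23 in striatum (-0.06 to 0.52). Ftcd was the gene of the 4 for which the models stood apart in 2 regions, with the higher level in GK rats.

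Akap3 followed the region more than the model. In the hippocampus the GK pools measured -0.02, 0.06 and -0.07 and the STZ pools -0.59, -0.27 and -0.55, against -1.54, -1.71 and -1.68 in controls. In the prefrontal cortex the GK pools measured -1.82, -1.81 and -1.49 and the STZ pools -1.91, -1.90 and -1.74, against -2.60, -2.49 and -2.20. All diabetic pools lay above all control pools in these 2 regions, by a narrower gap in the cortex. In the striatum the GK pools measured -3.65, -2.90 and -3.27 and the STZ pools -3.38, -3.50 and -3.66, against -3.08, -2.98 and -3.22. There the GK pools overlapped the controls, and the 3 STZ pools lay below them.

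The Akap3 difference from controls was 1.64 in GK rats and 1.17 in STZ rats in the hippocampus, 3.11- and 2.26-fold higher. It was 0.72 in GK rats and 0.58 in STZ rats in the prefrontal cortex, below a 2-fold change. In the striatum it was -0.18 in GK rats (95% interval -0.50 to 0.14) and -0.42 in STZ rats (-0.74 to -0.10), with a standard error of 0.15 in each region. The GK value in the striatum was 0.01 without the first GK pool and -0.37 without the second. GK minus STZ was 0.46 in the hippocampus (95% interval 0.15 to 0.78), 0.14 in prefrontal cortex (-0.18 to 0.46) and 0.24 in striatum (-0.08 to 0.56).

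**Figure D1:**
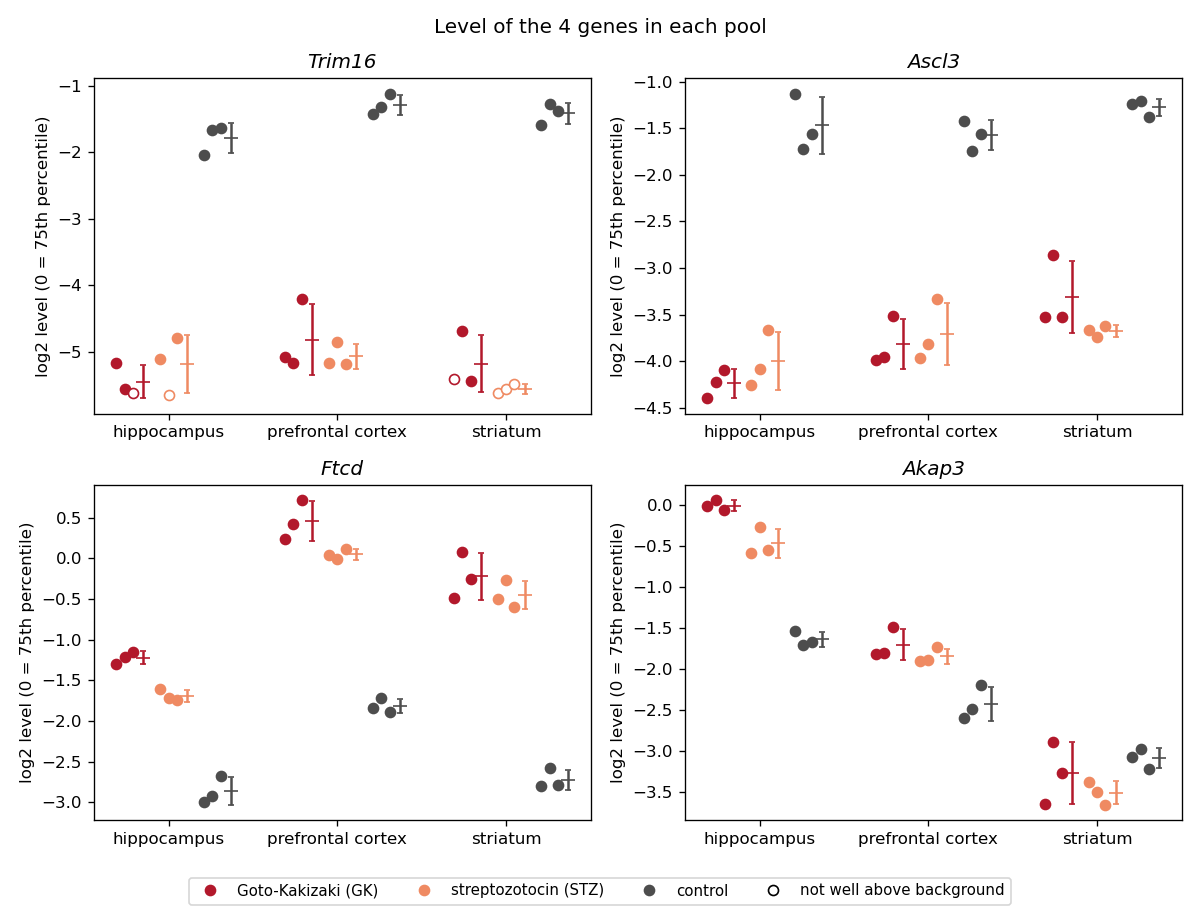
Level of each gene in every pool, as log2 of the processed signal relative to the 75th percentile of the array (vertical axis), by brain region (horizontal axis) and animals; open points were not well above background, and the bar beside each group is its mean ± SD (n = 3). Trim16 and Ascl3 were lower and Ftcd higher than in controls in every diabetic pool of every region, while Akap3 in the striatum was near or below its controls.

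**Figure D2:**
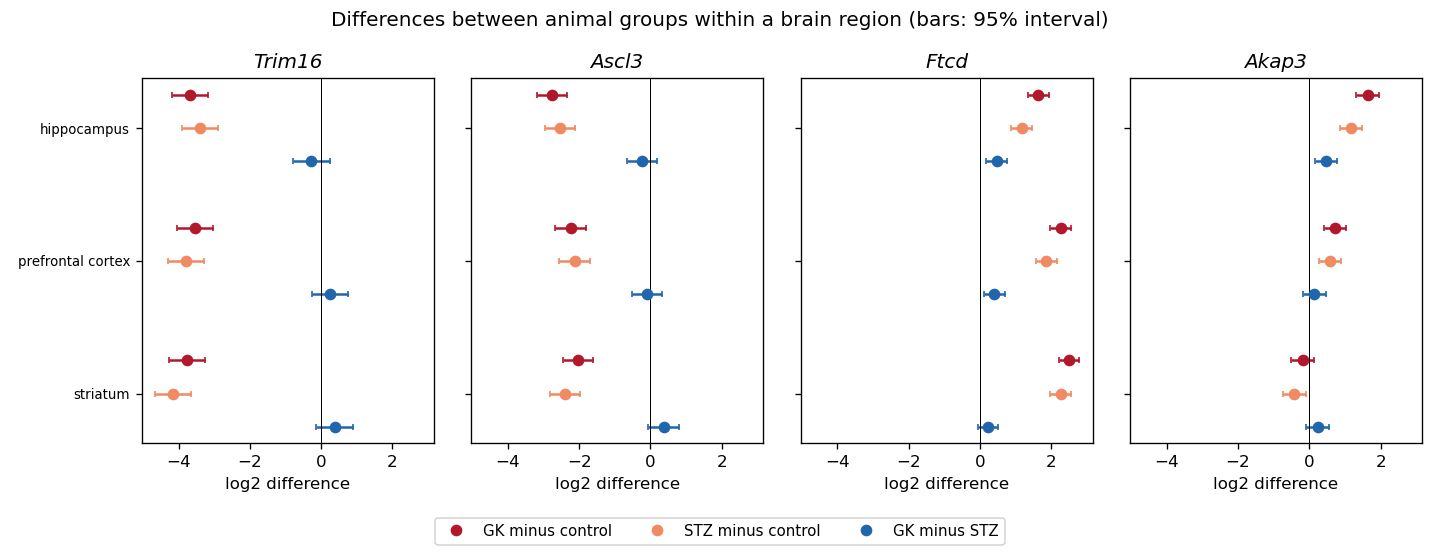
Differences between animal groups for the 4 genes within each region, on the log2 scale with 95% intervals (points, GK minus control, STZ minus control and GK minus STZ). The GK minus STZ differences stayed within 0.47 of 0, while the differences from control ran from -4.15 to 2.50, where -4.15, for Trim16 in the STZ striatum, is a fitted value against pools not well above background.

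A call was set at an adjusted p below 0.05 in the limma fit with at least a 2-fold change. By this rule all 4 genes were called in the hippocampus of both models, and 3 of the 4, all but Akap3, in prefrontal cortex and striatum of both. Of all probes tested, 1.92% were called for GK against control and 0.639% for STZ against control in the hippocampus. The shares were 2.49% for GK and 0.98% for STZ in the prefrontal cortex, and 3.09% for GK and 0.866% for STZ in striatum. The genes were picked on these comparisons, so nothing is read from their count of 20 calls in 24 differences. With normexp correction 15 of the 20 calls remained; those lost were Ftcd in the hippocampus of GK (1.25) and STZ rats (0.93) and in the STZ striatum (1.32), Akap3 in the STZ hippocampus (1.06) and Ascl3 in the STZ prefrontal cortex (-1.02). By the methods' t-test with adjustment 4 remained, all in the GK hippocampus. With a filter for signal well above background on every array of the region 16 remained. Those lost were Trim16 in the hippocampus and striatum of both models, where it was then not tested. Over the whole array, 20 probes had a call of one direction in all 6 comparisons, 11 higher and 9 lower, and 3 of the 20 were the Trim16, Ascl3 and Ftcd probes. The other named genes among them, singled out here after their values were seen, were Kmo, Sncg and Spatc1l, and 14 of the 20 had no gene symbol. Kmo was dim, with no control pool of any region and no STZ pool of the hippocampus well above background. The 2 models share their controls, so a control level that stands apart enters both differences alike.

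The arrays lay on 7 slides, and a slide held arrays of both a model and its controls in 3 comparisons, GK hippocampus, STZ prefrontal cortex and GK striatum. Within such slides the 5 differences that could be formed for Trim16 ran from -4.07 to -3.32, those for Ascl3 from -3.05 to -1.77 and those for Ftcd from 1.53 to 2.58. Akap3 differed by 1.60 in the GK hippocampus, by 0.46 to 0.68 in the STZ prefrontal cortex and by -0.19 in the GK striatum. For the other 3 comparisons no slide held both groups. The 75th percentile of the signal ran from 690.3 to 1527.2 over the 27 arrays, and 67.4 to 75.3% of probes were well above background.

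How the genes differ between brain regions within 1 kind of rat was not itself used to pick them, and it was tested with reservations. Each regional difference is built from pool values that also entered the contrasts with controls that picked the genes. Its p-value is therefore given as a description. The regions came from the same rats. A slide held both regions only for prefrontal cortex minus hippocampus in GK and STZ rats and for striatum minus prefrontal cortex in controls. In the other regional differences, among them every striatum minus hippocampus, region and slide cannot be told apart. Trim16 and Ascl3 had no called difference between regions in any animal group. In control rats the Trim16 level was -1.79 ± 0.23 in the hippocampus, -1.29 ± 0.15 in prefrontal cortex and -1.42 ± 0.16 in striatum (SD, n = 3 each). Its largest regional difference in controls, prefrontal cortex minus hippocampus, was 0.50 (95% interval -0.01 to 1.01, adjusted p = 0.19 by limma). Ascl3 in controls was -1.47 ± 0.30 in the hippocampus, -1.57 ± 0.16 in prefrontal cortex and -1.27 ± 0.09 in striatum (SD, n = 3 each), again with no called difference. In GK rats Ascl3 was 0.93 higher in striatum than in hippocampus (adjusted p = 0.0013 by limma), just under a 2-fold change.

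Ftcd was highest in the prefrontal cortex in all 3 kinds of rat. Prefrontal cortex minus hippocampus was 1.68 in GK rats (adjusted p = 1.8e-08), 1.74 in STZ rats (adjusted p = 8.5e-09) and 1.05 in control rats (adjusted p = 1.1e-05, limma), and the groups did not overlap in any of them. The control difference sat at the 2-fold line, and its call was lost without the first hippocampal control pool (0.98) or the second prefrontal control pool (1.00). Striatum minus hippocampus was 0.99 in GK rats (adjusted p = 1.1e-05) and 1.23 in STZ rats (adjusted p = 6.5e-07), against 0.14 in control rats (adjusted p = 0.48, limma). In controls the striatal and hippocampal pools overlapped, and in both models the striatal pools were all higher. Whether the regional difference itself differs between animals was not tested, since it contains the contrasts that chose the gene.

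Ordered by level over the 9 groups, Ftcd ran from 0.46 in the GK prefrontal cortex through 0.05 in the STZ prefrontal cortex, -0.22 in the GK striatum and -0.45 in the STZ striatum to -1.22 and -1.69 in the GK and STZ hippocampus. The control prefrontal cortex followed at -1.81, then the control striatum at -2.72 and the control hippocampus at -2.86. Neighbours in this order overlapped between the STZ cortex and the GK striatum, the GK and STZ striatum, the STZ hippocampus and the control cortex, and the control striatum and hippocampus.

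Akap3 had the steepest regional gradient of the 4 genes, from the hippocampus through the prefrontal cortex to the striatum. Striatum minus hippocampus was -3.27 in GK rats (adjusted p = 2.3e-12) and -3.04 in STZ rats (adjusted p = 4.2e-12), against -1.45 in control rats (adjusted p = 2.5e-07, limma). Prefrontal cortex minus hippocampus was -1.70 in GK rats and -1.38 in STZ rats, both called, against -0.78 in control rats (adjusted p = 0.00085), under 2-fold. Striatum minus prefrontal cortex was -1.57 in GK rats and -1.67 in STZ rats, both called, against -0.67 in control rats (adjusted p = 0.0024), again under 2-fold. Whether these regional differences themselves differ between animals was not tested for Akap3 either, since they contain the contrasts that chose the gene. The order of regions was the same in all 3 kinds of rat, except that with normexp correction striatum minus prefrontal cortex was 0.10 in control rats. Its highest level was -0.01 ± 0.07 in the GK hippocampus and its lowest -3.51 ± 0.14 in the STZ striatum (SD, n = 3 each).

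In all, 4 of the 12 regional differences of the genes were called in GK rats, 5 in STZ rats and 2 in control rats. Nothing is read from how these counts differ between animals, since the genes were picked on differences between the same animals. Of all probes tested, the share called for prefrontal cortex minus hippocampus was 6.2% in GK rats, 6.47% in STZ rats and 5.14% in controls. For striatum minus hippocampus it was 14.2% in GK rats, 7.52% in STZ rats and 8.96% in controls. For striatum minus prefrontal cortex it was 13.3% in GK rats, 9.53% in STZ rats and 8.79% in controls. Every called regional difference among the 4 genes belonged to Ftcd or Akap3. With normexp background correction 3 of these calls were lost, Ftcd between prefrontal cortex and hippocampus of controls (0.82) and Akap3 between striatum and hippocampus of controls (-0.55) and between prefrontal cortex and hippocampus of STZ rats (-1.04). The methods' t-test with adjustment lost 2 in GK rats, Ftcd between prefrontal cortex and hippocampus and Akap3 between striatum and prefrontal cortex.

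**Figure D3:**
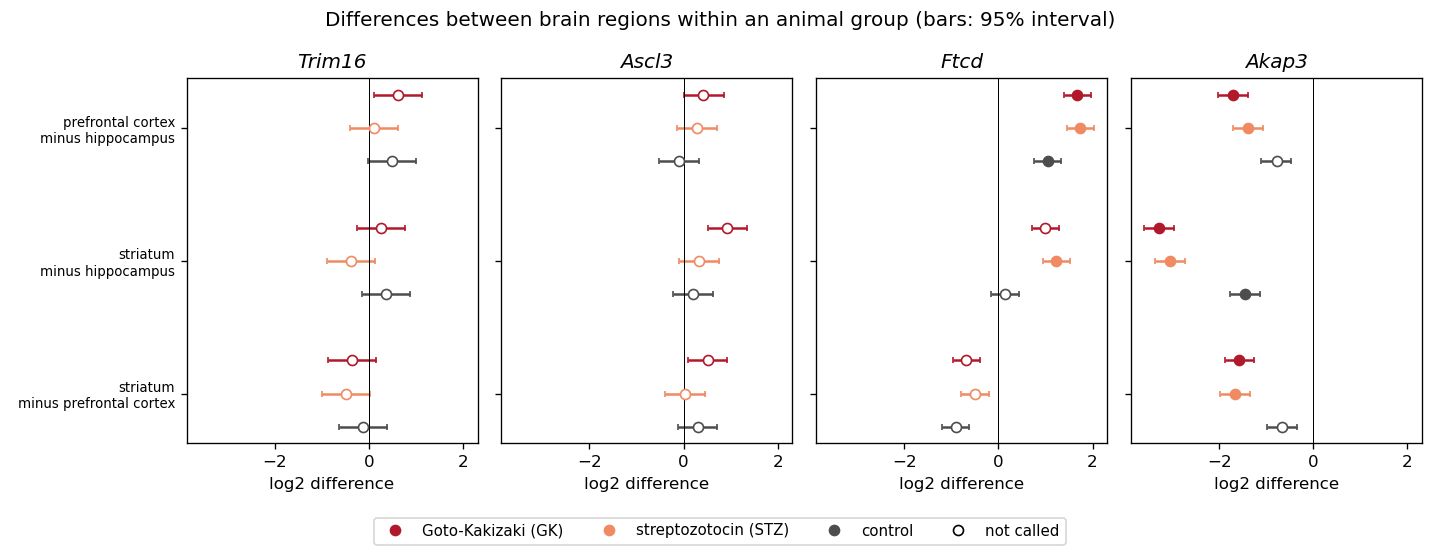
Differences between brain regions within GK, STZ and control rats for the 4 genes, on the log2 scale with 95% intervals; filled points were called (adjusted p below 0.05 by limma and at least 2-fold). Ftcd lay to the right for prefrontal cortex minus hippocampus in all 3 kinds of rat, and Akap3 lay to the left in all 9 differences, 1 of which, striatum minus prefrontal cortex in controls, was 0.10 with normexp correction.

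The tissue labels were checked on marker genes. The summed level of 11 genes of striatal projection neurons, on the linear scale where 1 is the 75th percentile, was 244 to 434 in the striatum and 16.1 to 53.7 elsewhere. The summed level of 9 genes of hippocampal excitatory neurons was 13.3 to 18.9 in the hippocampus and 2.47 to 9.96 elsewhere, although 1 of them, Lct, was never well above background. Such a sum weighs the brightest genes most. Neurod6, 1 of the 9, measured 3.17 to 3.82 on the log2 scale in the hippocampus, 2.29 to 2.98 in prefrontal cortex and -1.94 to 0.27 in striatum. The 6 genes of cortical excitatory neurons summed to 11.8 to 17.9 in the prefrontal cortex and 4.93 to 7.82 elsewhere.

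The summed levels of markers of other cells differed between animal groups in some regions and not in others. The 5 red blood cell genes, all well above background on every array, summed to 218 to 284 in GK, 113 to 130 in STZ and 55.7 to 163 in control hippocampus. In the striatum they summed to 309 to 515 in GK, 168 to 177 in STZ and 174 to 247 in control pools, so that GK pools were above controls and STZ pools were not. In the prefrontal cortex they summed to 220 to 378 in GK, 118 to 139 in STZ and 56.7 to 225 in control pools, where the control range overlapped that of each model. The 8 oligodendrocyte genes summed to 98 to 120 in GK, 108 to 115 in STZ and 132 to 165 in control prefrontal cortex, and to 345 to 404 in GK, 350 to 383 in STZ and 408 to 433 in control striatum. In the hippocampus they summed to 211 to 233 in GK, 253 to 303 in STZ and 253 to 277 in control pools, so that STZ pools were not below controls there. The 9 microglial genes summed to 62.7 to 99.5 in GK, 58.0 to 66.9 in STZ and 46.2 to 51.3 in control striatum. They summed to 57.4 to 70.2 in GK, 42.4 to 50 in STZ and 43.9 to 48.1 in control prefrontal cortex, and to 40.3 to 43.8 in GK, 36.9 to 47.3 in STZ and 32.3 to 41.5 in control hippocampus, where both models overlapped controls. The 9 choroid plexus genes varied within groups, from 8.48 to 147 in the control hippocampus alone. The 7 ependymal genes summed to 9.40 to 10.2 in GK, 6.37 to 8.68 in STZ and 7.07 to 8.31 in control hippocampus. The part of these cells in the levels of the 4 genes was not tested.

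Other genes of the pathways around the 4 were counted in lists that leave out the 4 themselves. Around Ftcd, 36 of 38 genes of histidine breakdown and folate one-carbon metabolism had a probe and 33 to 35 were tested in a region. Of these 0 were called in any of the 6 comparisons. The median difference of that list ran from -0.06 to 0.08. Around Akap3, 23 protein kinase A anchors and subunits had a probe, 21 or 22 were tested in a region and 0 were called. The median of that list ran from -0.08 to 0.12. Around Trim16, 24 genes of damaged lysosome clearance and the Nrf2 response had a probe, 23 were tested in each region and 0 were called. The median there ran from -0.07 to 0.16. At an unadjusted p below 0.05 by limma, 42 of the 204 tests of the first of these lists passed, 30 of 128 of the second and 18 of 138 of the third, and the methods' t-test with adjustment called 0 in each. These are 20.6%, 23.4% and 13.0% of the tests, beside 18.8% of all probe tests in the 6 comparisons together, of which 1.67% gave a call. Nothing is therefore read from the counts of 0. The median difference over all probes tested ran from -0.04 to 0.02 over the 6 comparisons.

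The tripartite motif family itself was mixed. Of the 38 members with a probe besides Trim16, 29 to 31 were tested in a region, and at most 2 were called in any comparison. Trim45 was 1.21 higher than in controls in the hippocampus of GK rats (adjusted p = 3.9e-05) and also 1.21 higher in that of STZ rats (adjusted p = 0.00021, limma). Its hippocampal levels were 1.94, 2.14 and 2.03 in GK pools and 2.01, 2.12 and 1.97 in STZ pools, against 0.86, 0.75 and 0.86 in controls. Trim45 was thus called in both models in the direction opposite to Trim16. Trim14 was 1.03 higher (adjusted p = 0.00027) and Trim23 1.13 lower in the GK striatum (log2 -1.13, adjusted p = 0.024), and Trim25 was lower in the STZ prefrontal cortex (log2 -1.05, adjusted p = 0.0012, limma). Calls made up 2.78% of the 180 tests in this family, beside 1.67% of all probe tests.

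Of 30 proneural helix-loop-helix factors and partners with a probe, relatives of Ascl3, 27 or 28 were tested in a region. Among them 3 calls were made, all in the striatum, and no difference between regions was tested. Tcf12, an E protein that pairs with proneural factors, was higher there by 1.25 in GK rats (adjusted p = 8e-05) and by 1.20 in STZ rats (adjusted p = 0.00068, limma). Its striatal levels were 0.98, 0.60 and 1.07 in GK pools and 1.01, 0.68 and 0.80 in STZ pools, against 0.01, -0.71 and -0.40 in controls. Neurod6, a factor of cortical and hippocampal excitatory neurons, was lower in the GK striatum (log2 -1.12, adjusted p = 0.0043, limma). The calls were 1.83% of the 164 tests in this list, beside 1.67% of all probe tests.

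The sperm fibrous sheath and flagellum is the setting in which Akap3 is best known. Of 23 genes of this list with a probe, 15 to 19 were tested in a region, and Odf1 and Tekt3 were called. Odf1, an outer dense fibre protein, was higher in GK rats by 1.43 in the hippocampus (adjusted p = 0.011), 2.76 in prefrontal cortex (adjusted p = 8.4e-06) and 2.47 in striatum (adjusted p = 3.1e-05, limma). In STZ rats it differed from controls by -0.63, 0.34 and 0.16 in these regions, and none of the 3 was called. In the prefrontal cortex its levels were -1.95, -1.92 and -1.70 in GK pools and -4.23, -4.40 and -4.21 in STZ pools, against -4.60, -4.76 and -4.49 in controls. Odf1 has a further probe, which was not well above background on any array. Tekt3, a tektin of the flagellum, was lower in the GK prefrontal cortex (log2 -1.01, adjusted p = 0.0013, limma). In all 4.0% of the 100 tests in this list gave a call, beside 1.67% of all probe tests, and 3 of these calls were of Odf1 in GK rats.

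The genes that lie beside the 4 in the RefSeq table were examined as well, taking the nearest 5 with a tested probe on each side. Of the 10 neighbours of Akap3, 0 were called in any of the 6 comparisons. There 5 of 50 tests had an unadjusted p below 0.05 by limma, beside 18.8% of all probe tests, and the methods' t-test with adjustment called 0. Of the neighbours of Trim16, 1 was called, Tekt3, and of those of Ascl3, 1 was called, Dennd2b. Calls made up 1.67% of the tests around Trim16 and 3.33% of those around Ascl3, beside 1.67% of all probe tests. Nothing is read from these counts. Dennd2b, a regulator of Rab GTPases, was lower in the hippocampus of GK rats (log2 -1.5, adjusted p = 4.8e-05) and of STZ rats (log2 -1.03, adjusted p = 0.0075, limma).

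Of the 10 neighbours of Ftcd, 3 were called, with 11 calls in 60 tests (18.3%), beside 1.67% of all probe tests. Of the 11 calls, 6 were of Spatc1l, 3 of S100b and 2 of Col6a1, repeated over regions of the same rats. The gene immediately next to Ftcd, Spatc1l, was called lower in both models in all 3 regions, opposite to Ftcd. In the hippocampus Spatc1l measured -6.26, -6.37 and -6.48 in GK pools and -4.95, -5.84 and -4.98 in STZ pools, against -4.11, -4.18 and -4.02 in controls. It was dim: in the prefrontal cortex and striatum neither model had a pool well above background. Against the same kind of floor as for Trim16, Spatc1l was 2.94-fold lower in the GK hippocampus (adjusted p = 2e-06). It was 2.53-fold lower in the GK and 2.23-fold lower in the STZ prefrontal cortex (adjusted p = 2.7e-08 and 0.0061, limma). In the STZ hippocampus the difference was -1.16 (adjusted p = 0.012, limma). In the striatum Spatc1l was 1.51-fold lower in GK rats and 1.76-fold lower in STZ rats against the floor (adjusted p = 0.0058 in each, limma). There 2 of 3 control pools were well above background.

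The other called neighbours of Ftcd were called in 1 model each. Col6a1, a collagen VI chain, was lower in GK rats in the hippocampus (log2 -1.07, adjusted p = 0.0039) and the prefrontal cortex (log2 -1.54, adjusted p = 6.6e-05, limma), and differed from controls by -0.07 and 0.50 in STZ rats. S100b, a calcium-binding protein of astrocytes, was higher in STZ rats by 6.10 in the hippocampus, 5.77 in prefrontal cortex and 5.66 in striatum (adjusted p at most 1.8e-13, limma). In the hippocampus the single S100b probe measured -4.84, -4.87 and -4.97 in GK pools and 1.47, 1.94 and 1.70 in STZ pools, against -4.43, -4.37 and -4.38 in controls. The summed level of the 8 astrocyte genes, S100b among them, was 119 to 128 in GK, 131 to 168 in STZ and 122 to 137 in control hippocampus.

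**Figure D4:**
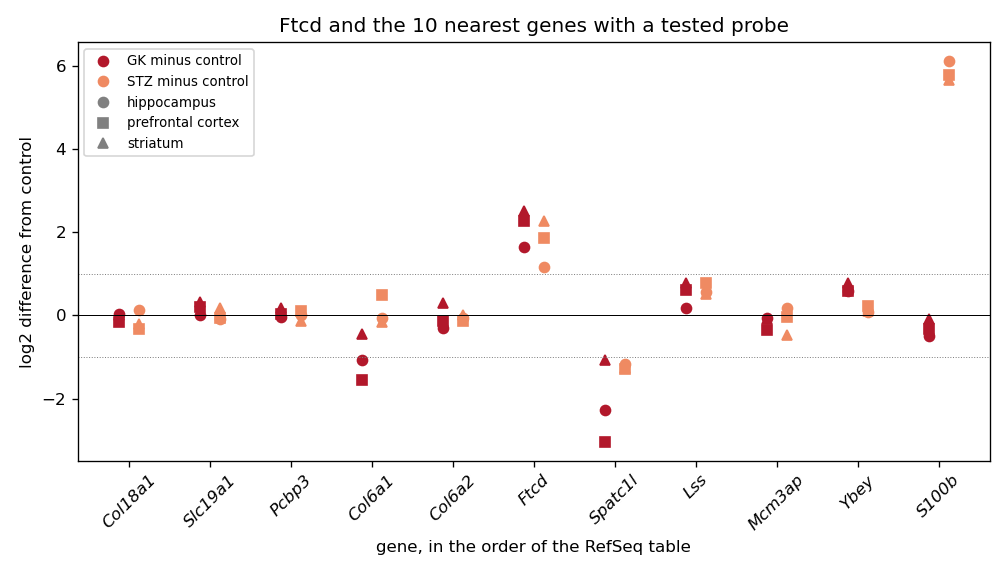
Log2 difference from control of Ftcd and the 10 nearest genes with a tested probe, in the order of the RefSeq table (horizontal axis), for GK (left of each name) and STZ (right) in the 3 regions; the dotted lines mark a 2-fold change. Ftcd lay above and Spatc1l below the dotted lines in both models, and S100b lay above them in STZ rats alone; Spatc1l was not well above background in most diabetic pools.

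The genes whose levels ran most like those of the 4 over the 27 arrays were found by Pearson correlation over 12674 genes, as a description, since pools of 1 group and regions of the same rats are not independent. By Pearson r, Trim16 and Ascl3 were most like each other (r = 0.955). By rank they were not. Their Spearman rho was 0.736, below that of Trim16 with Pofut1 (0.851) and of Ascl3 with Ccrl2 (0.84) and Selenoi (0.77). Both genes were picked for their differences between models and controls, which enter r, so nothing is read from its size. Selenoi, an enzyme of phosphatidylethanolamine synthesis, was next for Ascl3 (r = 0.930) and after Pofut1 for Trim16 (r = 0.926). It was called lower in 5 of the 6 comparisons, and in the striatum it measured -3.44, -3.75 and -3.43 in GK pools and -3.31, -3.25 and -3.48 in STZ pools, against -2.15, -1.98 and -2.04 in controls. Pofut1, which adds fucose to Notch receptors, had r = 0.928 with Trim16. Ccrl2, a chemokine receptor-like protein, had r = 0.879 with Ascl3 and was called in 0 of the 6.

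Ftcd ran most like Kcnj12, an inward rectifier potassium channel (r = 0.894), Pter (r = 0.873) and Kif1a, a kinesin motor of synaptic vesicle precursors (r = 0.863). Kcnj12 was called higher in GK rats in all 3 regions, by 1.59 in the hippocampus, 1.35 in prefrontal cortex and 1.34 in striatum, and its differences of 0.54 to 0.95 in STZ rats did not reach 2-fold. Akap3 ran most like Nrip3 (r = 0.928), Spon1 (r = 0.926) and Tuba8 (r = 0.919), and none of the 3 was called in either model in any region.

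Trim16 and Ascl3 were both lower in the models, which is what picked them, and had the highest Pearson r with each other. Their promoters are shown for that reason, as a description. Each window runs from 250 bases before to 50 bases after the start of the gene in RefSeq (GRCr8), read along its strand. Capitals mark every match, on either strand, to 5 short motifs: the E-box CAGCTG, the TATA box as TATAAA, the CCAAT box, the GC box GGGCGG and the core of the antioxidant response element, TGACNNNGC. No match overlapped another here.
Trim16 (chr10:47985300-47985599, plus strand): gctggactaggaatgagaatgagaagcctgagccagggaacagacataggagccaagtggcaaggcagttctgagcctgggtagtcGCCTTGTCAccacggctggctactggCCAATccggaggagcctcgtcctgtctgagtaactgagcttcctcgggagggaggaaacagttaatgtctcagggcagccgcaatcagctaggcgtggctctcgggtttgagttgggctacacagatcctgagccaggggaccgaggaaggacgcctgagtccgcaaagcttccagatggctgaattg
Ascl3 (chr1:173190699-173190998, minus strand): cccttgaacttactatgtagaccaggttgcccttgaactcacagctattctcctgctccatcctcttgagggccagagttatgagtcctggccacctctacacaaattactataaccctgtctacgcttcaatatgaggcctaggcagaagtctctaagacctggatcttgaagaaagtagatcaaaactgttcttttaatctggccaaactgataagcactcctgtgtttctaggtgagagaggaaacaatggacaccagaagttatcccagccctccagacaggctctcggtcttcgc
The Trim16 window held 1 CCAAT box, found in 37.5% of all 33469 rat promoters of this length, and 1 antioxidant response element core, found in 12.1%. The Ascl3 window held no match to any of the 5, so the windows of this pair shared none. The Ftcd window held 1 TATA box, found in 14.2% of promoters, and the Akap3 window 1 E-box, found in 15.1%. The GC box was found in 33.1% of promoters and in none of the 4 windows.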

How the data were processed

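Total RNA of 3 rats was pooled for each array, labelled with Cy3 and hybridised to 1-colour oligonucleotide arrays, which the authors read with Agilent Feature Extraction 9.1. The deposited values are processed signal intensity, background-subtracted and detrended within each array and not scaled between arrays, and the deposited value table held the same intensity. A genome build for the probes is not given in the sources used here. Probes were paired with RefSeq genes by accession, symbol or synonym (20042 of 41012 matched).

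Intensity was scaled to the 75th percentile of its array and put on the log2 scale, and 2635 outlier spots were left out, none of them on a probe of the 4 genes. The test of a region took the probes for which any of its 3 groups had 2 or more arrays with the spot called well above background. All 9 groups were fitted together in limma 3.58.1 (R 4.3.3; 18 residual degrees of freedom) with Benjamini-Hochberg adjustment within a comparison. A call needed an adjusted p below 0.05 and a 2-fold change. The code was tested on simulated data. Correlations and intervals used Python 3.11.15 and scipy 1.17.1. The number of arrays limits the precision, and the labels do not say how rats were assigned to pools.

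The 4 genes and the gene lists were chosen with earlier results of these data known. Besides the 4 genes with all their probes, the text names up to 3 called genes with the largest change per list and comparison, the 3 genes most correlated with each gene, the called ones among the 5 neighbours on each side, and region markers. Each list gene was read on its brightest probe. Same-numbered pools deviated together in STZ against control prefrontal cortex (correlations 0.492, 0.47 and 0.71) and in prefrontal cortex minus hippocampus of STZ rats (0.525, 0.322 and 0.716), and lay on the same slides in both. The alternatives tried were the 50th percentile, quantile normalization, normexp background correction, outlier spots kept, 2 other filters, slide and replicate blocks, 2 groups fitted alone, the methods' t-test (Welch), no fold threshold and leaving out each pool.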

Additional observations from a re-analysis of the deposited data

Results flagged for a closer look

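Akap3 in streptozotocin-treated rats was set apart because all its pools moved one way in 2 regions and the other way in the third. All 3 STZ pools were above all 3 control pools for hippocampus and for prefrontal cortex, and all 3 were below them for striatum. The difference between STZ and control rats was larger in the hippocampus than in the striatum by 1.59 on the log2 scale, and larger in the prefrontal cortex than in the striatum by 1.00. The striatal gap was narrow: the highest STZ pool lay 0.16 below the lowest control pool. These differences between regions were not tested, since the contrasts were used to pick the gene. No slide held both STZ and control arrays of the hippocampus or of the striatum, and the part of the slide was not tested there.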

How the results depend on the processing

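The mean differences over the 3 regions kept their direction for all 4 genes in both models under every alternative that gave such a mean. The slide as a fixed block gave none. The other filters, the outlier spots kept, the methods' t-test, the fold threshold and the fit of 2 groups alone could not move these means. For Akap3 the striatal differences had the opposite sign to the mean. Normexp background correction, which raises dim signals, moved 7 of the 8 by more than the spread between pools. It was run with an offset of 50, and the part of that offset in the changes was not tested. Trim16 moved to -2.30 in GK and -2.22 in STZ rats, Ascl3 to -1.72 and -1.61, Ftcd to 1.61 and 1.33, and Akap3 to 0.51 in GK rats. With each pool left out in turn the means ran from -3.76 to -3.60 (GK) and -3.84 to -3.70 (STZ) for Trim16, -2.42 to -2.29 and -2.42 to -2.30 for Ascl3, 2.09 to 2.18 and 1.73 to 1.80 for Ftcd, and 0.66 to 0.79 and 0.41 to 0.48 for Akap3. The replicate number as a block could not change these means, since every group held the same 3 replicate numbers. What it could change was the calls. It changed no call of the 4 genes between regions and no count of calls by over 1.5 times (317 against 303 probes for STZ prefrontal cortex).

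Of the regional differences called, 4 in GK rats became 2 when tested by the methods' t-test with adjustment and 7 when no fold threshold was set, and 4 to 6 with 1 pool left out. In control rats 2 became 0 under normexp correction and 5 without a fold threshold, and 1 or 2 with 1 pool left out, the call of Ftcd between prefrontal cortex and hippocampus ending without the first hippocampal (0.98) or the second prefrontal control pool (1.00). In STZ rats 5 stayed called whichever pool was left out. Normexp correction turned 3 differences that were not called: Trim16 to 0.10 for striatum minus prefrontal cortex in GK rats and 0.06 for striatum minus hippocampus in STZ rats, and Akap3 to 0.10 for striatum minus prefrontal cortex in control rats.

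The counts of probes called over the whole array, behind the shares above, were less stable. Normexp correction gave 206 (GK) and 52 (STZ) for hippocampus, 260 and 46 for prefrontal cortex and 335 and 53 for striatum, against 589 and 196, 771 and 303, and 947 and 265. The methods' t-test with adjustment gave 224 for the GK hippocampus and 0 for the other 5, and no fold threshold gave 1569, 675, 2718, 826, 4231 and 996 in the same order. The 2 groups alone gave 128 for STZ hippocampus, 53 for STZ prefrontal cortex, 217 for GK striatum and 22 for STZ striatum. The slide as a block gave 561 for GK striatum, and the stricter filter gave 172 for STZ striatum. Leaving out 1 pool gave 507 to 602 and 139 to 196 for hippocampus, 673 to 901 and 150 to 435 for prefrontal cortex, and 782 to 1397 and 177 to 470 for striatum. The STZ prefrontal count was 150, 166, 170 and 179 without STZ pool 3, control pool 3, control pool 1 and STZ pool 1, and the STZ striatal count was 470 without the first control pool. The cause of these changes was not tested. The slide as a fixed block could be fitted in 3 of the 6 comparisons with controls; the slide as a random block, added after seeing the data, moved none of these counts by over 1.5 times. Signal over background limits Trim16 most, since none of its STZ striatal pools was well above background.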
